A study of Homo sapiens with 8 samples.

Results

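The 10 human histone deacetylases of class I (HDAC1, HDAC2, HDAC3 and HDAC8) and class II (HDAC4, HDAC5, HDAC6, HDAC7, HDAC9 and HDAC10) were followed in 92.1 cells, an established human uveal melanoma line. The members were chosen by gene symbol and not by a rule on any measured value, though with earlier results of these data known. All 10 were found among the 18406 genes of the table, and all 10 passed the filter on low values that left 13320 genes to test. Total RNA was sequenced in 4 groups of 2 libraries each: trametinib and panobinostat together, panobinostat alone, trametinib alone, and DMSO vehicle. Every drug exposure lasted 24 h. Each single drug was given at 10 nM. The combination label states 10 nM once, and equal doses in the single-drug and combination groups are assumed in the comparisons between them. The treatment labels of the panobinostat and combination libraries also call panobinostat a MEK inhibitor, and the drug name was followed here. These libraries were registered as an additional set, apart from the vehicle and trametinib libraries. In comparisons between the sets, a panobinostat effect and a difference between the sets cannot be told apart.

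Histone deacetylases remove acetyl groups from lysines on histones and on other proteins, which usually goes with a more closed chromatin and less transcription. Class I enzymes are mostly nuclear, and HDAC1, HDAC2 and HDAC3 act as catalytic subunits of corepressor complexes such as SIN3, NuRD, CoREST and NCoR. Class IIa enzymes (HDAC4, HDAC5, HDAC7 and HDAC9) bind MEF2 transcription factors and leave the nucleus when kinases phosphorylate them and 14-3-3 proteins hold them. Class IIb holds HDAC6, a cytoplasmic deacetylase of tubulin and HSP90, and HDAC10, a polyamine deacetylase. Panobinostat is a hydroxamate inhibitor of class I and II enzymes, and trametinib inhibits the kinases MEK1 and MEK2.

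The libraries held 9017593 and 6897784 reads in the combination, 10005164 and 10169082 with panobinostat, 10342369 and 10528784 with trametinib, and 16861001 and 12808244 with vehicle. Values are reads per gene divided by a size factor of the library, called normalised values here, and the members had between 123 and 3165 reads per library. Trametinib replicate 2 listed 5362 genes at 0 and trametinib replicate 1 listed 3743, against 2222 to 2890 in the other 6 libraries. No member was at 0 in any library. The correlation between the replicates over genes was lower with trametinib (r = 0.897) than in the other groups (0.974 to 0.991). DUSP6, an ERK-induced phosphatase that reads out MEK inhibition, had 3.51 and 4.56 in the combination, 627 and 583 with panobinostat, 0 and 0 with trametinib, and 577 and 567 with vehicle. The 7 melanocyte markers summed to 137000 to 139000 in the combination, 99900 to 104000 with panobinostat, 167000 to 175000 with trametinib and 104000 to 111000 with vehicle. Among them DCT differed most, at 258 and 236 in the combination, 5.10 and 10.1 with panobinostat, 1984 and 1912 with trametinib, and 14.4 and 4.75 with vehicle. The endothelial gene CDH5 was at 0 in all 8 libraries. The summed fibroblast markers were 639 to 793 in the combination, 518 to 595 with panobinostat, 516 to 821 with trametinib and 134 to 150 with vehicle. COL1A1 made up nearly all of that sum, since COL3A1 did not exceed 21.1 and PDGFRB did not exceed 10.5. Of the immune markers, CD68 had 935 and 858 in the combination, 1417 and 1497 with panobinostat, 841 and 762 with trametinib, and 650.0 and 610.4 with vehicle, and PTPRC did not exceed 11.7. The part of these differences in the results was not tested. In bulk RNA, fewer cells of a kind and less RNA per cell cannot be told apart.

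The members did not all move one way. In the combination against vehicle, HDAC5, HDAC6, HDAC8 and HDAC9 rose, 4 of 10 members against 24.5% of all tested genes, and HDAC2, HDAC4 and HDAC7 fell, 3 of 10 against 25.5%. With panobinostat, HDAC9 and HDAC6 rose, 2 of 10 members against 15.0% of all tested genes, and HDAC4 and HDAC7 fell, 2 of 10 against 15.6%. With trametinib, HDAC4, HDAC5, HDAC6 and HDAC8 rose, 4 of 10 members against 23.7% of all tested genes, and HDAC2 and HDAC7 fell, 2 of 10 against 27.4%. With 10 members, counts this near the background are no result about the members as a set, and the results lie in the single genes. The median change of the members was 0.22 log2 in the combination, 0.085 with panobinostat and 0.10 with trametinib, beside medians of 0.031, 0.0021 and -0.073 over all tested genes. These comparisons share the vehicle libraries.

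**Figure D1:**
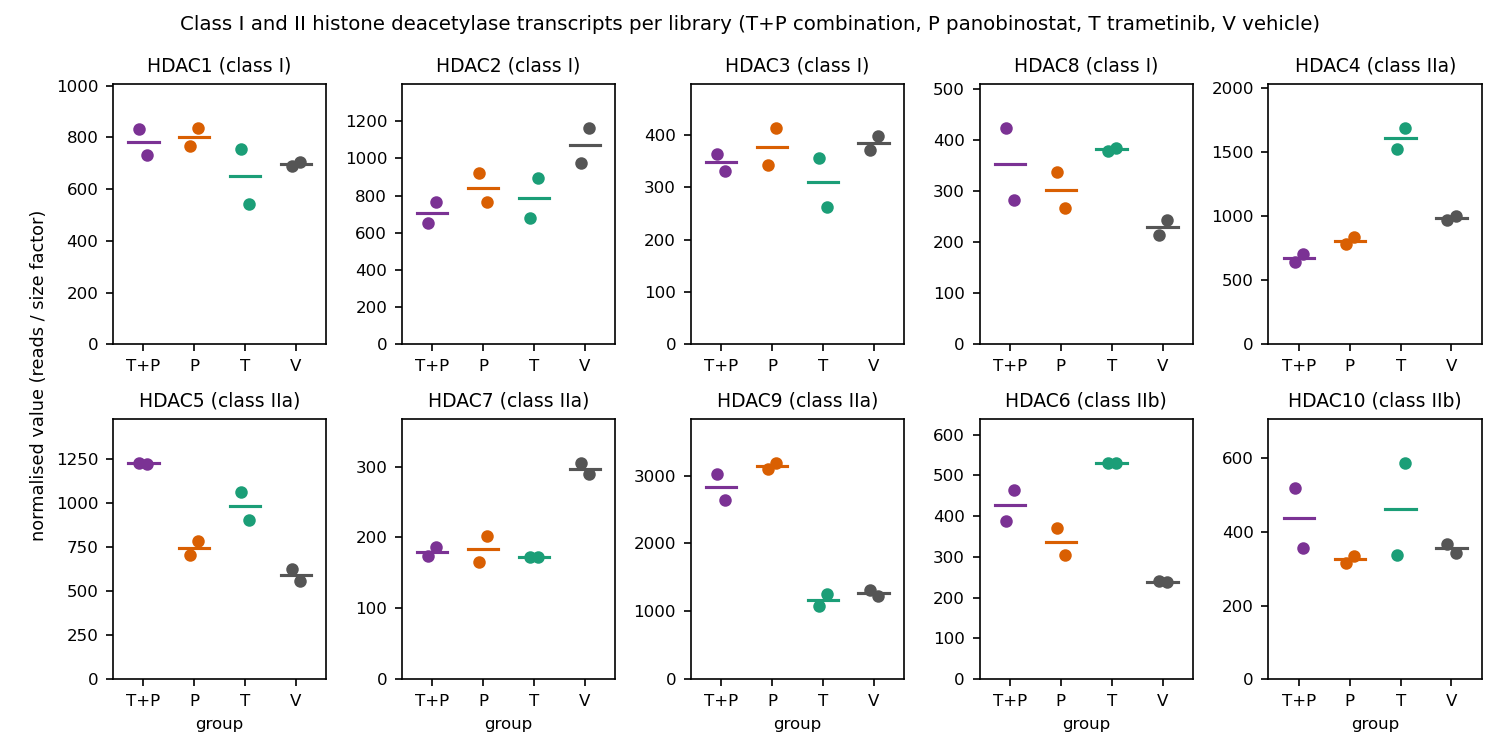
Normalised value (vertical axis, reads divided by the size factor) of each deacetylase in each library, 1 panel a gene, with groups along the horizontal axis. Points are libraries (n = 2 a group) and bars are group means. HDAC9 is high in the 4 libraries with panobinostat, HDAC4 is highest in the trametinib libraries, and HDAC5 is highest in the combination.

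The calls were not equally firm. Of 22 calls over the 6 comparisons, 12 held under every alternative run (up to 17), which include leaving out each library in turn. These were HDAC4 in trametinib against vehicle, in the combination against vehicle and against trametinib, and in the interaction. They also included HDAC5 in trametinib against vehicle and in the combination against vehicle and against panobinostat, and HDAC6 in trametinib and the combination against vehicle. HDAC9 held in panobinostat against vehicle and in the combination against vehicle and against trametinib. The number of members called in the combination against vehicle was 4 without vehicle replicate 2 or without combination replicate 1. The count for panobinostat against vehicle was 1 without vehicle replicate 1, without vehicle replicate 2 or without panobinostat replicate 1, and 2 without panobinostat replicate 2. The count for trametinib against vehicle was 3 without vehicle replicate 1. The share of all tested genes called was also lower there. It was 35.3% in the combination without vehicle replicate 2 and 38.3% without combination replicate 1. It was between 14.8 and 16.2% with panobinostat without either vehicle or either panobinostat replicate, and 35% with trametinib without vehicle replicate 1.

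HDAC9 and HDAC4 of class IIa had the widest ranges of group means (1.43 and 1.26 log2), followed by HDAC6 of class IIb (1.15). HDAC9 is a MEF2-binding corepressor known from muscle, heart and immune cells. HDAC9 is transcribed from several start sites that lie far apart, and the letters upstream of a distal and an internal one are shown. The gene models behind the values below are not given, so whether the values cover both starts is not known. The windows are the 250 bases before each start on the plus strand of chromosome 7, at chr7:18086575-18086824 for the distal start and chr7:18495460-18495709 for the internal one. They are RefSeq sequence of build GRCh38.p14, and no value of the table was placed by coordinates. Capitals mark the letters of a GC box (GGGCGG or CCGCCC) in the distal window and of a MEF2 core (TATTTTTA or TAAAAATA) in the internal one.
HDAC9 distal start: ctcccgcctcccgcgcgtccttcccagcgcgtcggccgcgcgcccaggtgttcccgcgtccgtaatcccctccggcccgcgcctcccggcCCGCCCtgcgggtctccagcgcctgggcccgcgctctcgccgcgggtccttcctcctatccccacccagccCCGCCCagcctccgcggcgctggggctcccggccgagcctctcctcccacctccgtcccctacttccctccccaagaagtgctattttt
HDAC9 internal start: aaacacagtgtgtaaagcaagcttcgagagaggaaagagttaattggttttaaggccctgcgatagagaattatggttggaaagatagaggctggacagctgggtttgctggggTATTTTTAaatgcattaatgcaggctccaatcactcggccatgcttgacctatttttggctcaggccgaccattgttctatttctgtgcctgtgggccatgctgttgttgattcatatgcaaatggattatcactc
The distal window had 75.2% GC and 2 GC boxes, and the internal window had 44% GC and a MEF2 core at position -136 from the start. The HDAC9 windows not shown, also internal, had 38.4 to 48% GC and no GC box. Of 35116 RefSeq promoter windows read on both strands, 2.09% held the MEF2 core and 42.6% held a GC box. Among 19 windows of 9 members, the MEF2 core was in 2, which were overlapping windows of HDAC9. A match is a run of letters and not a binding site, and which start the reads came from cannot be told from the table.

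HDAC9 had normalised values of 3019 and 2641 in the combination, 3100.1 and 3191 with panobinostat, 1078 and 1255 with trametinib, and 1307 and 1222 with vehicle. All 4 libraries that received panobinostat lay above all 4 that did not. Those that received it were also the libraries of the additional set, so drug and set cannot be told apart here. HDAC9 rose 2.49-fold with panobinostat (log2 change 1.31 ± 0.096 SE, limma adjusted p = 2.26e-05), and 6.76% of tested genes had a larger log2 change. It rose 2.23-fold in the combination against vehicle (log2 change 1.16 ± 0.096, adjusted p = 9.99e-06). It rose 2.43-fold in the combination against trametinib (log2 change 1.28 ± 0.096, adjusted p = 1.79e-05). With trametinib alone its log2 change against vehicle was -0.12 ± 0.096 (adjusted p = 0.321; 95% interval -0.33 to 0.10), and it passed at -0.23 without trametinib replicate 2. The panobinostat effect on HDAC9 with trametinib, less that without it, was -0.036 ± 0.14 log2 (adjusted p = 0.874, 95% interval -0.34 to 0.27). In the combination against panobinostat the log2 change was -0.16 ± 0.096 (adjusted p = 0.290).

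HDAC4, a class IIa corepressor best known from cartilage, muscle and neurons, was the member that the drugs moved in opposite directions. The window upstream of its GC-rich start, on the minus strand at chr2:239401650-239401899 (RefSeq, GRCh38.p14), is shown. It was the only HDAC4 window with a GC box or an E-box. The other HDAC4 windows had 48 to 60% GC, so a contrast with the internal HDAC9 window holds for the shown window alone. Capitals mark a GC box and an E-box (CACGTG), and the E-box letters were found in 6.34% of all windows and in 1 of the 19 member windows.
HDAC4 GC-rich start: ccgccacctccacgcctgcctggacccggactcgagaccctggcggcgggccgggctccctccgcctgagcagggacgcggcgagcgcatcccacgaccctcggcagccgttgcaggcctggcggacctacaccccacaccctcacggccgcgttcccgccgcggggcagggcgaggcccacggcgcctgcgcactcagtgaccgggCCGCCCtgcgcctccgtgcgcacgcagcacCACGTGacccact
This window had 76.8% GC, beside a median of 58% over all windows. HDAC4 had normalised values of 639 and 699.8 in the combination, 781 and 833 with panobinostat, 1523 and 1687 with trametinib, and 969 and 999 with vehicle. The 4 groups did not overlap. HDAC4 rose 1.63-fold with trametinib against vehicle (log2 change 0.70 ± 0.095, limma adjusted p = 0.000222). It fell by 0.56 ± 0.095 log2 in the combination against vehicle (adjusted p = 0.000953) and by 1.26 ± 0.095 log2 in the combination against trametinib (adjusted p = 1.86e-05).

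With panobinostat alone the fall of HDAC4 against vehicle was small, -0.29 ± 0.095 log2 with an adjusted p of 0.0464. It did not pass without vehicle replicate 1 (-0.31), vehicle replicate 2 (-0.26), panobinostat replicate 1 (-0.24), panobinostat replicate 2 (-0.33) or either combination replicate (-0.29), or with no filter on low values (-0.29). The interaction, which is the panobinostat effect with trametinib minus the panobinostat effect without it, was -0.97 ± 0.13 log2 for HDAC4 (limma adjusted p = 0.00112, 95% interval -1.28 to -0.67). Thus the fall with panobinostat was larger in trametinib-treated cells than in vehicle-treated cells. Both of these falls compare libraries between the sets, so drug and set cannot be told apart in them. Within the additional set, the log2 change of HDAC4 in the combination against panobinostat was -0.27 ± 0.095 (limma adjusted p = 0.0698). Trametinib alone against vehicle gave 0.70 ± 0.095. HDAC4 and HDAC6 were the 2 of 10 members with a negative interaction that passed, against 9.04% of all tested genes. A positive one passed in 10.2% of all tested genes and in no member by limma. The count was lower without vehicle replicate 1, vehicle replicate 2, panobinostat replicate 1 or combination replicate 1. The share of all tested genes called was lower in these fits too.

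**Figure D2:**
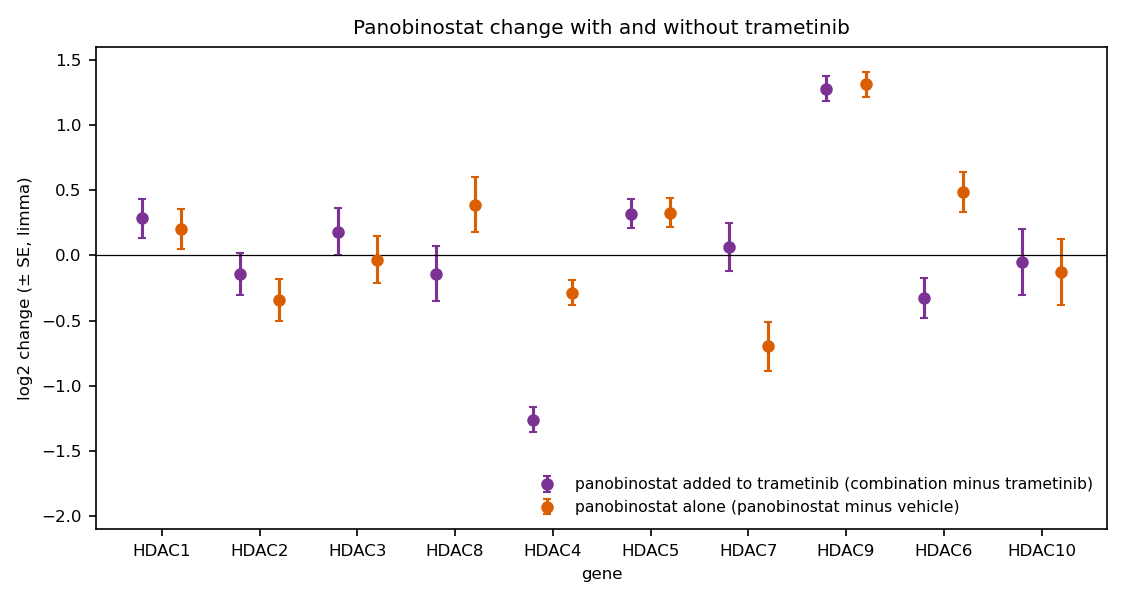
Log2 change with panobinostat (vertical axis, fitted value ± standard error, 2 libraries a group) of each deacetylase (horizontal axis) in trametinib-treated cells (combination minus trametinib, left point) and in vehicle-treated cells (panobinostat minus vehicle, right point). The 2 points of HDAC9 lie together at 1.28 and 1.31, and those of HDAC4 lie apart at -1.26 and -0.29.

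HDAC5, a class IIa enzyme that responds to calcium-dependent kinases in muscle and neurons, had normalised values of 1229 and 1220.1 in the combination, 703 and 782 with panobinostat, 1061 and 904 with trametinib, and 624 and 559.7 with vehicle. The 4 groups did not overlap, and both single drugs lay between vehicle and the combination. HDAC5 rose 2.07-fold in the combination against vehicle (log2 change 1.05 ± 0.11, limma adjusted p = 4.79e-05), 1.66-fold with trametinib (0.73 ± 0.11, adjusted p = 0.00049) and 1.65-fold in the combination against panobinostat (0.72 ± 0.11, adjusted p = 0.00142). HDAC5 was the 1 member of 10 called in that comparison, against 10.9% of all tested genes that rose and 13.1% that fell. More members passed without either trametinib replicate, and so did a larger share of all tested genes. With panobinostat alone the log2 change of HDAC5 against vehicle was 0.33 ± 0.11 (adjusted p = 0.0513). Its interaction was -0.0062 ± 0.16 log2 (adjusted p = 0.984, 95% interval -0.36 to 0.35).

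HDAC7, a class IIa enzyme with known roles in endothelium and thymocytes, was lower in all 3 drug groups. Its normalised values were 173 and 187 in the combination, 165 and 203 with panobinostat, 173 and 172 with trametinib, and 306 and 289 with vehicle. No drug-treated library reached the vehicle libraries, and the panobinostat range covered those of the other 2 drug groups. HDAC7 fell by 0.72 ± 0.19 log2 in the combination (limma adjusted p = 0.00988), by 0.70 ± 0.19 with panobinostat (adjusted p = 0.0195) and by 0.78 ± 0.19 with trametinib (adjusted p = 0.0064), each against vehicle. The combination call ended without vehicle replicate 1 (-0.68), vehicle replicate 2 (-0.76) or combination replicate 1 (-0.66). The panobinostat call ended without vehicle replicate 1 (-0.66), vehicle replicate 2 (-0.74) or panobinostat replicate 1 (-0.55), and the trametinib call ended without vehicle replicate 1 (-0.74). The interaction was 0.76 ± 0.26 log2 (adjusted p = 0.0749), and it passed at 0.76 without either trametinib replicate. Exons of HDAC7 overlap antisense genes, by up to 549 bases, and SLC48A1 on the other strand by 32 bases. Its values are thus uncertain if strand was not used in counting. The same holds for HDAC3 (426 bases), HDAC4 (101) and HDAC2 (69), whose exons also overlap antisense genes. HDAC8 shares 193 exon bases with AL133500.1, a coding gene on the same strand.

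**Figure D3:**
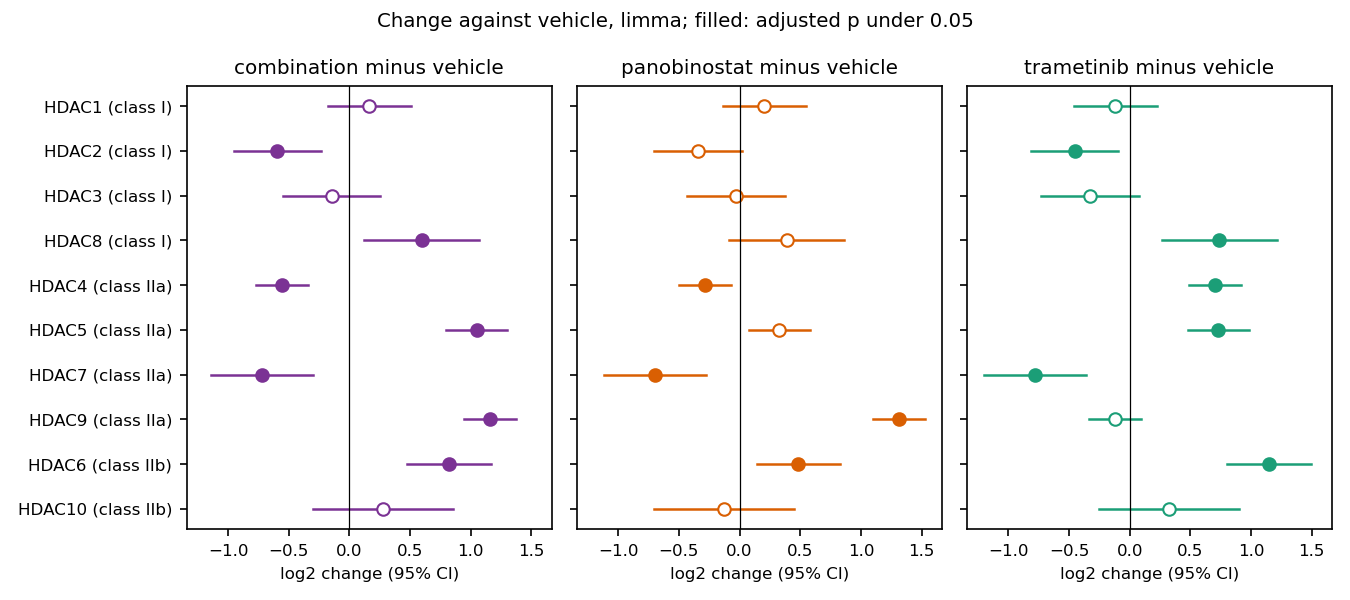
Log2 change of each deacetylase against vehicle (fitted, with 95% intervals) in the combination, panobinostat and trametinib groups, from 2 libraries a group, filled where the adjusted p was under 0.05. HDAC9 lies above 1 in both groups with panobinostat and at -0.12 with trametinib, HDAC4 changes sign between trametinib and the combination, and HDAC7 lies below 0 in all 3 groups.

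In class IIb, HDAC6 rose in all 3 drug groups and most with trametinib. This enzyme deacetylates alpha-tubulin, cortactin and HSP90 in the cytoplasm. Its normalised values were 388 and 466 in the combination, 371 and 304 with panobinostat, 532 and 531 with trametinib, and 241 and 238 with vehicle. The 4 groups did not overlap. HDAC6 rose 2.21-fold with trametinib (log2 change 1.15 ± 0.15, limma adjusted p = 0.000211) and 1.77-fold in the combination (0.82 ± 0.15, adjusted p = 0.0016). The rise with panobinostat was 1.40-fold (0.48 ± 0.15, adjusted p = 0.0393), and it did not pass without vehicle replicate 1 (0.49), vehicle replicate 2 (0.48), panobinostat replicate 1 (0.34) or panobinostat replicate 2 (0.63).

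The interaction for HDAC6 was -0.81 ± 0.22 log2 (limma adjusted p = 0.0296, 95% interval -1.30 to -0.32), so the combination lay below the sum of the single-drug changes. It did not pass without vehicle replicate 1 (-0.82), vehicle replicate 2 (-0.80), panobinostat replicate 1 (-0.66) or combination replicate 1 (-0.68). In the combination against trametinib the log2 change of HDAC6 was -0.32 ± 0.15 (limma adjusted p = 0.136). Against panobinostat, within the additional set, it was 0.34 ± 0.15 (adjusted p = 0.150). HDAC10, the polyamine deacetylase, had 521 and 356 in the combination, 316 and 336 with panobinostat, 338 and 589 with trametinib, and 368 and 344 with vehicle. The combination and trametinib replicates lay far apart and their ranges overlapped that of vehicle, while both panobinostat values lay just below vehicle. HDAC10 passed in no comparison by limma. Without trametinib replicate 1 it did pass against vehicle, at 0.73 with trametinib, and without trametinib replicate 2 the same value was -0.074. HDAC10 shares 615 exon bases with MAPK12 on the same strand, so its reads may be split with that gene.

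In class I, HDAC2 and HDAC8 passed against vehicle in the combination and with trametinib, and HDAC1 and HDAC3 passed in no comparison by limma. HDAC1 had normalised values of 834 and 730.2 in the combination, 767 and 837 with panobinostat, 756 and 543 with trametinib, and 689.7 and 703 with vehicle. Its log2 changes against vehicle were 0.16 ± 0.15, 0.20 ± 0.15 and -0.12 ± 0.15 in that order of drug groups. HDAC3, the catalytic subunit of NCoR, had 363 and 332 in the combination, 342 and 413 with panobinostat, 356 and 262 with trametinib, and 370.1 and 398 with vehicle. Its log2 changes against vehicle were -0.15, -0.031 and -0.33 (SE 0.18 each). Without trametinib replicate 1, both genes passed with trametinib, HDAC1 at -0.36 and HDAC3 at -0.55, and without trametinib replicate 2 HDAC1 was at 0.12.

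HDAC2, which pairs with HDAC1 in SIN3, NuRD and CoREST, had 649.7 and 767 in the combination, 919.5 and 766 with panobinostat, 678 and 892 with trametinib, and 976 and 1165 with vehicle. Every drug-treated library lay below both vehicle libraries. HDAC2 fell by 0.59 ± 0.16 log2 in the combination (limma adjusted p = 0.0121) and by 0.45 ± 0.16 with trametinib (adjusted p = 0.0393), and its log2 change with panobinostat was -0.34 ± 0.16 (adjusted p = 0.139). The combination call ended without vehicle replicate 2 or combination replicate 1 (-0.47 each). The trametinib call ended without vehicle replicate 1 (-0.58), vehicle replicate 2 (-0.33), trametinib replicate 1 (-0.26) or any of the 4 panobinostat and combination libraries (-0.45 each), and also with no filter on low values or 2 groups only (-0.45 each).

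HDAC8, a class I enzyme that acts outside those complexes and deacetylates the cohesin subunit SMC3, had the widest range in its class. Its normalised values were 424 and 283 in the combination, 336 and 267 with panobinostat, 378 and 385 with trametinib, and 214 and 244 with vehicle. All drug-treated libraries exceeded both vehicle libraries, though the combination group overlapped both the panobinostat and the trametinib group. HDAC8 rose 1.51-fold in the combination (log2 change 0.60 ± 0.21, limma adjusted p = 0.0394) and 1.67-fold with trametinib (0.74 ± 0.21, adjusted p = 0.0160), and its log2 change with panobinostat was 0.39 ± 0.21 (adjusted p = 0.197). The trametinib call ended without vehicle replicate 1 (0.64). The combination call ended without vehicle replicate 1 (0.50), vehicle replicate 2 (0.69), either panobinostat replicate (0.60) or combination replicate 1 (0.31), and also under TMM scaling (0.55) or with no filter on low values (0.60).

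Between the combination and trametinib, HDAC9 rose and HDAC4 fell, and no other member passed. That is 1 of 10 members up and 1 down, against 17.6% of all tested genes up and 15.2% down. Without trametinib replicate 1 the log2 change was 0.52 for HDAC1, -0.34 for HDAC2, 0.40 for HDAC3, 0.44 for HDAC5 and -0.45 for HDAC10. With all libraries these were 0.28, -0.14, 0.18, 0.32 and -0.051. More members passed without that replicate, and so did a larger share of all tested genes. The median change of the members was 0.0068 log2, beside 0.064 over all tested genes.

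To compare levels between genes, values were divided by the exon length of each gene in GENCODE 29 (GRCh38), because the gene models behind the table are not given in the sources used here. By exon length HDAC1 ranked 1 in all 4 groups, at 368 ± 34.4 per kb in the combination, 377.5 ± 23.4 with panobinostat, 306 ± 71.1 with trametinib and 328 ± 4.43 with vehicle (SD, n = 2 each). HDAC9 was at 217 ± 20.5 per kb in the combination and 241 ± 4.95 with panobinostat, and at 89.4 ± 9.57 with trametinib and 96.9 ± 4.64 with vehicle. By this measure it ranked 3 in the combination, 2 with panobinostat and 7 with trametinib and with vehicle.

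In vehicle, HDAC1 was followed by HDAC3 (196 ± 10.1 per kb) and HDAC10 (131.5 ± 6.46). HDAC5 (111 ± 8.43), HDAC4 (109 ± 2.37), HDAC2 (105.5 ± 13.2) and HDAC9 came next, and neighbours among these 4 lay within their SDs of each other. HDAC7 (67.0 ± 2.67), HDAC6 (42.1 ± 0.303) and HDAC8 (20.2 ± 1.85) were lowest. By exon length HDAC9 made up 15.3 and 14.7% of the members' summed per-kb value in the combination, 17.9 and 17.3% with panobinostat, 6.14 and 7.32% with trametinib and 8.34 and 7.71% with vehicle. The order depends on the length used. By coding length HDAC9 ranked 1 in the combination and with panobinostat, 4 with trametinib and 3 with vehicle, and HDAC8, with an exon length of 11324 bases, ranked 5 or 6 instead of last. HDAC1 then ranked 2 in the combination, 3 with panobinostat, 3 with trametinib and 2 with vehicle, and HDAC2 ranked 1 with trametinib and with vehicle. By coding length the share of HDAC9 was 26.4 and 25.1% in the combination, 28.2 and 28.9% with panobinostat, 11 and 12.3% with trametinib and 14.3 and 12.8% with vehicle.

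Genes that work with these enzymes were counted from lists of complex subunits, regulators and substrates. The shares of all tested genes called against vehicle, beside which the counts are to be read, were 24.5% up and 25.5% down in the combination, 15.0% up and 15.6% down with panobinostat, and 23.7% up and 27.4% down with trametinib. In NuRD, the remodelling complex built on HDAC1 and HDAC2, 2 of 12 tested subunits rose and 9 fell in the combination against vehicle. The counts were 2 up and 7 down with panobinostat and 3 up and 7 down with trametinib. Median log2 changes were -0.57, -0.50 and -0.33 in that order, beside 0.031, 0.0021 and -0.073 over all tested genes. The count with panobinostat was lower without vehicle replicate 2 or either panobinostat replicate, and so was the share of all tested genes called. GATAD2A, a scaffold subunit of NuRD, had 1839 and 1777 in the combination, 2932 and 3091 with panobinostat, 3169 and 3516 with trametinib and 4475 and 4488 with vehicle. Its falls were 1.31, 0.57 and 0.42 log2, against vehicle and in the same order (limma adjusted p = 6.53e-07, 0.000338 and 0.000687).

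CHD3, a helicase subunit, moved in opposite directions: it fell by 0.46 log2 in the combination and by 0.57 with panobinostat and rose 1.83-fold with trametinib (limma adjusted p = 0.000977, 0.00072 and 1.57e-05). RBBP4, a histone chaperone shared by NuRD and SIN3, fell by 0.96, 0.67 and 0.39 log2 in the combination, with panobinostat and with trametinib (adjusted p = 3.16e-05, 0.000842 and 0.00759). The trametinib call for RBBP4 ended at -0.37 without vehicle replicate 2. MBD3 and MTA1, named after their values were seen, also fell in all 3 drug groups, MBD3 by 1.49, 1.36 and 1.24 log2 and MTA1 by 1.10, 0.65 and 1.28. GATAD2B and MTA3, named likewise, rose in all 3 drug groups. In the same order GATAD2B rose by 0.45, 0.43 and 0.50 log2 and MTA3 by 0.58, 0.43 and 0.80. The MTA1 call with panobinostat ended without either vehicle or either panobinostat replicate (-0.70 to -0.59). Among 16 tested SIN3 subunits, 5 rose and 4 fell in the combination, 2 passed with panobinostat, both lower, and 2 rose and 4 fell with trametinib. The panobinostat count was lower without any single vehicle, panobinostat or combination library and higher without either trametinib replicate. The trametinib count was lower without vehicle replicate 2 and higher without trametinib replicate 1. The share of all tested genes called moved the same way in each of these fits. FAM60A, a SIN3 subunit, fell by 1.01 log2 in the combination and 1.34 with trametinib.

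**Figure D4:**
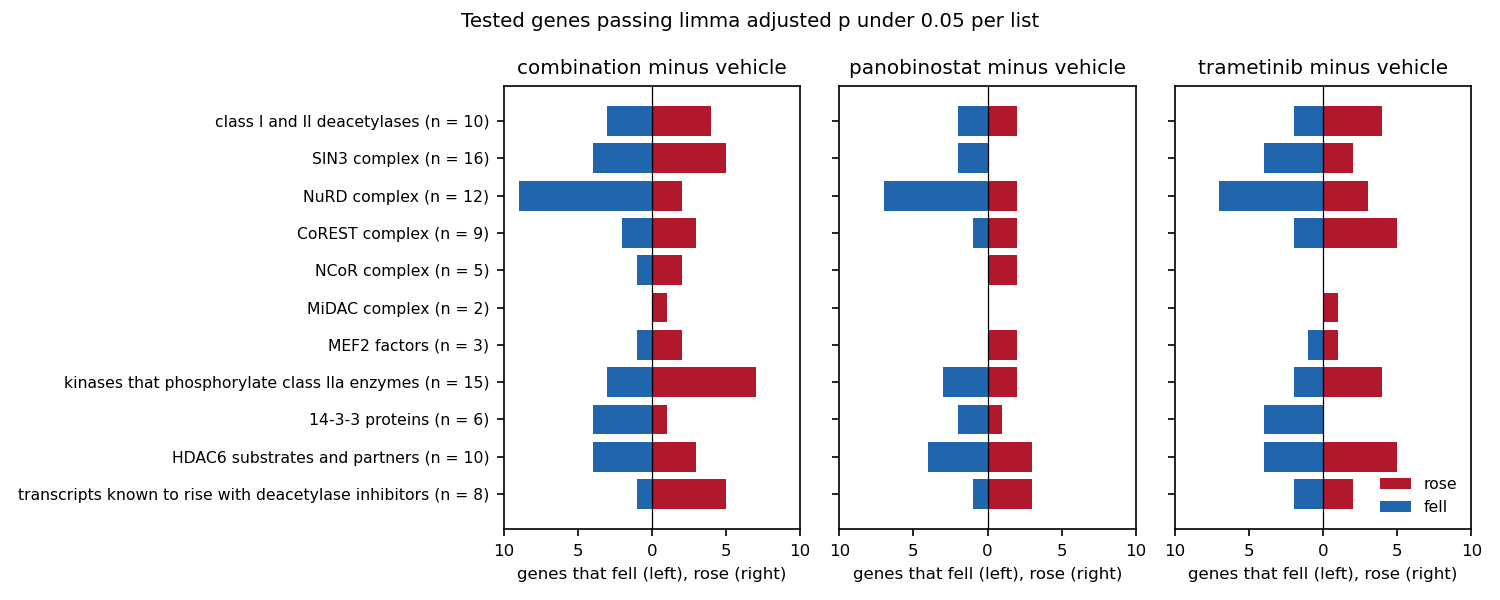
Number of tested genes (horizontal axis) of each list (vertical axis, n tested in brackets) that rose, to the right, or fell, to the left, against vehicle (limma, adjusted p under 0.05) in the combination, panobinostat and trametinib groups. The bars of fallen NuRD subunits reach 9, 7 and 7 of 12, and those of risen ones 2, 2 and 3.

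In the CoREST list of HDAC1 and HDAC2 partners, 3 of 9 tested genes rose and 2 fell in the combination, 2 rose and 1 fell with panobinostat, and 5 rose and 2 fell with trametinib. The combination counts are near the shares of all tested genes, 24.5% up and 25.5% down. Without either vehicle or either panobinostat replicate the panobinostat count was lower, as was the trametinib count without vehicle replicate 1. The share of all tested genes called was lower in each of these fits as well. PHF21A, a CoREST subunit that reads unmethylated histone H3, had 1685 and 1660 in the combination, 1036 and 1193 with panobinostat, 1222 and 1604 with trametinib and 560 and 607 with vehicle. It rose 2.86-fold, 1.90-fold and 2.40-fold over vehicle in that order (limma adjusted p = 1.27e-05, 0.000801 and 3.88e-05). HMG20B fell by 0.99 log2 with trametinib (adjusted p = 0.000329), and its changes were -0.030 in the combination and -0.0065 with panobinostat (adjusted p = 0.879 and 0.980).

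In the NCoR list of HDAC3 partners, 2 of 5 genes rose and 1 fell in the combination, and 2 passed with panobinostat, both higher. The combination count was lower without combination replicate 2, and the panobinostat count without any single vehicle, panobinostat or combination library. The share of all tested genes called was lower there as well. With trametinib 0 of 5 passed by limma, edgeR or DESeq2, and 0 had an unadjusted p under 0.05 by limma. At least 1 passed without trametinib replicate 1 or without trametinib replicate 2, when the share of all tested genes called was higher. TBL1X, a WD-repeat subunit, had 465 and 493 in the combination, 391 and 439.6 with panobinostat, 177 and 314 with trametinib, and 222 and 252 with vehicle. It rose 2.02-fold in the combination and 1.75-fold with panobinostat (limma adjusted p = 0.00626 and 0.0309). The combination call ended without combination replicate 2 (0.97), and the panobinostat call ended without any single vehicle, panobinostat or combination library (0.72 to 0.90). CORO2A, an actin-binding component of the complex, had 190 and 192 in the combination, 165 and 149 with panobinostat, 22.1 and 47.2 with trametinib and 34.3 and 35.6 with vehicle. It rose 5.33-fold in the combination and 4.39-fold with panobinostat (adjusted p = 0.000623 and 0.00293). In the MiDAC list, 1 of 2 tested genes, TRERF1, rose with trametinib (log2 change 0.57) and in the combination (0.38), and its log2 change with panobinostat was 0.27 (adjusted p = 0.107). The combination call for TRERF1 ended without vehicle replicate 1 (0.39), vehicle replicate 2 (0.37) or combination replicate 2 (0.24).

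MEF2 factors, the DNA-binding partners of class IIa enzymes, were measured as 3 tested genes. MEF2D had 3444 and 3179 in the combination, 2791 and 2564 with panobinostat, 2281 and 2618 with trametinib and 1546 and 1482 with vehicle. It rose 2.19-fold, 1.77-fold and 1.61-fold in that order (limma adjusted p = 5.81e-06, 0.000158 and 0.000129). MEF2C had 1391 and 1517 in the combination, 3403 and 3517 with panobinostat, 997 and 598 with trametinib and 2035 and 2082 with vehicle. It fell by 1.41 log2 with trametinib (adjusted p = 0.000186) and rose 1.68-fold with panobinostat (adjusted p = 0.0140).

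The MEF2C rise with panobinostat ended without vehicle replicate 1 (0.73), vehicle replicate 2 (0.76), panobinostat replicate 1 (0.77) or panobinostat replicate 2 (0.72). Its fall in the combination, -0.50 log2 (limma adjusted p = 0.0470), ended without any single vehicle, panobinostat or combination library (-0.57 to -0.44). MEF2A, named after its values were seen, rose in the combination (0.48 log2, adjusted p = 0.00609), and this ended at 0.41 without combination replicate 1.

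Of 15 tested kinases that can phosphorylate class IIa enzymes, 7 rose and 3 fell in the combination, 2 rose and 3 fell with panobinostat, and 4 rose and 2 fell with trametinib. The panobinostat counts are near the shares of all tested genes, 15.0% up and 15.6% down, and are no result about the kinases. The combination shares of all tested genes were 24.5% up and 25.5% down. The combination count was lower without vehicle replicate 2. The panobinostat count was lower without a vehicle or panobinostat replicate and higher without either trametinib replicate, and the trametinib count was higher without trametinib replicate 1. In each of these fits the share of all tested genes called moved the same way. MARK1, a microtubule-affinity kinase, had 2425 and 2290 in the combination, 1309 and 1501 with panobinostat, 2447 and 2385 with trametinib and 1211 and 1201 with vehicle. It rose 1.95-fold in the combination and 2.00-fold with trametinib (limma adjusted p = 1.18e-05 and 8.53e-06). PRKD3, a protein kinase D, fell by 0.77 log2 with panobinostat (adjusted p = 0.000193), and its smaller falls in the combination (-0.26) and with trametinib (-0.34) ended without either vehicle replicate, the combination one also without either combination replicate (-0.28 to -0.23). Among 6 tested 14-3-3 genes, 1 rose and 4 fell in the combination, 1 rose and 2 fell with panobinostat, and 4 passed with trametinib, all lower. YWHAZ had 11240 and 10935 in the combination, 18377 and 18684 with panobinostat, 8834 and 8222 with trametinib and 14624 and 14677 with vehicle. It fell by 0.40 log2 in the combination, rose by 0.34 with panobinostat and fell by 0.78 with trametinib (adjusted p = 0.000135, 0.00106 and 1.80e-06). YWHAG fell by 0.61 log2 with trametinib (adjusted p = 1.56e-05), and its fall of 0.16 in the combination (adjusted p = 0.0353) ended without any single vehicle, panobinostat or combination library (-0.17 to -0.15).

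HDAC6 substrates and partners moved both ways: 3 of 10 rose and 4 fell in the combination, 3 rose and 4 fell with panobinostat, and 5 rose and 4 fell with trametinib. TUBA1A, an alpha-tubulin, had 5645 and 5349 in the combination, 2765 and 2379 with panobinostat, 12666 and 11918 with trametinib and 830.0 and 896 with vehicle. It rose 6.37-fold, 2.97-fold and 14.2-fold in that order (limma adjusted p = 4.98e-08, 5.73e-06 and 6.69e-09). The other alpha-tubulins of the list, named after their values were seen, fell. TUBA1B had 2626 and 2299 in the combination, 5585 and 5681 with panobinostat, 4207 and 4610.4 with trametinib, and 12490 and 13812 with vehicle, and it fell by 2.42, 1.22 and 1.58 log2 in that order. TUBA1C fell by 1.49, 0.67 and 1.22 log2. HSP90AA1, the inducible HSP90 chaperone and a deacetylation substrate of HDAC6, fell by 1.36, 0.44 and 1.89 log2 (adjusted p = 1.98e-07, 0.000528 and 2.58e-08). Reads of tubulin and HSP90 genes can be shared with near-identical copies, so the values of single family members are uncertain.

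Among 8 tested transcripts known to rise with deacetylase inhibitors in other cells, 5 rose and 1 fell in the combination, 3 rose and 1 fell with panobinostat, and 2 rose and 2 fell with trametinib. Of all tested genes, 24.5% rose and 25.5% fell in the combination, 15.0% rose and 15.6% fell with panobinostat, and 23.7% rose and 27.4% fell with trametinib. CLU, a secreted chaperone, had 1935 and 1728 in the combination, 860.4 and 967 with panobinostat, 817 and 950.4 with trametinib and 308 and 314 with vehicle. It rose 5.87-fold, 2.93-fold and 2.83-fold in that order (limma adjusted p = 2.31e-07, 2.26e-05 and 4.79e-06). HIST1H2BK, a polyadenylated H2B gene on the list with near-identical copies, fell by 2.41, 1.86 and 2.32 log2 in that order (adjusted p = 2.92e-08, 2.85e-06 and 2.11e-08). CDKN1A, the cell cycle inhibitor p21, and GSN, an actin-severing protein, were named after their values were seen. CDKN1A rose 2.02-fold in the combination and 1.39-fold with panobinostat and fell by 0.37 log2 with trametinib. GSN rose 1.70-fold in the combination and 2.37-fold with panobinostat, and its log2 change with trametinib was -0.24 (adjusted p = 0.165), which passed at -0.38 without trametinib replicate 1.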

How the data were processed

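Per the labels' protocols, total RNA went into the NuGEN Ovation Human FFPE kit. The authors deposited 1 normalised signal value per gene and library. DESeq2, Cufflinks 2.2.1 and TopHat2 2.0.13 are named in the submitters' processing notes, and build hs37d5 is listed for the vehicle and trametinib libraries. The annotation, the version of DESeq2 and the use of strand are not given in the sources used here. Each library's signal was a whole multiple of a fixed step, which gave whole reads for 100% of values (tolerance 1e-06).

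The test was limma 3.58.1 (R 4.3.3) with an intensity trend on log2(value + 1), which understates changes of low genes. The 13320 genes with a mean of at least 10 in 8 libraries entered 1 fit without a block (4 residual and 5.32 prior degrees of freedom). Calls are at a Benjamini-Hochberg adjusted p under 0.05 over all tested genes. An exact permutation test of 2 against 2 cannot give a two-sided p under 0.333. Whether replicates are separate cultures is not stated, and the p-values cover only the library-to-library spread, possibly technical. The interaction is (combination minus trametinib) less (panobinostat minus vehicle). The quasi-likelihood test of edgeR on the recovered reads, as an alternative, called 3241 genes up and 3496 down in the combination, 2080 up and 2193 down with panobinostat, and 3301 up and 3482 down with trametinib, each against vehicle.

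Members and lists were chosen with earlier results of these data known. All members are named, as are, per list, the 2 genes called against vehicle at the lowest adjusted p, the 3 genes most alike the member with the widest range in each class, and DUSP6. GSE1 and ELMSAN1 were not matched, and a gene of 1 list is not reported here. Alternatives were offsets, filters, TMM scaling, edgeR 4.0.16 and DESeq2 1.42.0 on the recovered reads, fits of 2 groups only, a replicate block and the removal of each library. Methods were tested on simulated data.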

Additional observations from a re-analysis of the deposited data

Results flagged for a closer look

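The panobinostat effect differed between trametinib-treated and vehicle-treated cells for 2 deacetylases, by the interaction term of the limma fit. For HDAC4 the difference was -0.97 log2 (adjusted p = 0.00112), with a panobinostat change of -1.26 in trametinib-treated cells and -0.29 in vehicle-treated cells, and it passed without each of the 8 libraries (-1.05 to -0.90). For HDAC6 the difference was -0.81 log2 (adjusted p = 0.0296), with changes of -0.32 in trametinib-treated cells and 0.48 in vehicle-treated cells. It did not pass without vehicle replicate 1, vehicle replicate 2, panobinostat replicate 1 or combination replicate 1, with values between -0.95 and -0.66 without each library. Each of these panobinostat changes compares libraries between the sets, so drug and set cannot be told apart in it. Groups of 2 libraries are too small for a test of single outlying samples.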

How the results depend on the processing

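Of 1010 values of members under alternatives, 908 kept their direction and side of the threshold, 34 newly passed, 42 no longer passed and 26 changed sign. The cause of these shifts was not tested. Where leaving out a library left 1 in its group, that library was assumed to vary like the others. The share of all tested genes called also changed with the library left out. The ranges of member counts below are thus no result about the members as a set. With each library left out in turn the number of members called ranged from 4 to 7 in combination against vehicle, 1 to 6 in panobinostat against vehicle, 3 to 8 in trametinib against vehicle, 2 to 7 in combination against trametinib, 1 to 4 in combination against panobinostat and 1 to 3 in the interaction. The combination against panobinostat called 2 members with TMM scaling, 2 with DESeq2 and 3 with 2 groups only, and panobinostat against vehicle called 8 with 2 groups only. Smaller counts came with no filter on low values, at 6 in combination, 3 in panobinostat and 5 in trametinib against vehicle, with TMM scaling, at 6 in combination against vehicle, and with 2 groups only, at 5 in trametinib against vehicle. These settings ended HDAC8 in the combination (no filter 0.60, TMM 0.55), HDAC4 with panobinostat (no filter -0.29) and HDAC2 with trametinib (no filter and 2 groups only -0.45). With a replicate block the counts were 7 in combination against vehicle, 3 in panobinostat against vehicle (HDAC6 lost, adjusted p = 0.0556), 6 in trametinib against vehicle, 2 against trametinib, 1 against panobinostat and 2 in the interaction. The edgeR test on the recovered reads gave the same number of called members as limma in every comparison. Replicate numbers did not pair the libraries (r of deviations -0.0235 to 0.0218).

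Signs changed when 1 library was left out as follows, in log2. In combination against panobinostat, HDAC1 ran from -0.13 to 0.057, HDAC3 from -0.25 to 0.023, HDAC7 from -0.17 to 0.12 and HDAC8 from -0.083 to 0.50. In combination against trametinib, HDAC2 ran from -0.34 to 0.058, HDAC3 from -0.037 to 0.40, HDAC8 from -0.43 to 0.15 and HDAC10 from -0.45 to 0.35. In the interaction, HDAC1 ran from -0.16 to 0.32, HDAC3 from -0.0063 to 0.43, HDAC5 from -0.12 to 0.11, HDAC9 from -0.15 to 0.073 and HDAC10 from -0.32 to 0.48. HDAC3 ran from -0.17 to 0.11 in panobinostat against vehicle, and in trametinib against vehicle HDAC1 ran from -0.36 to 0.12 and HDAC10 from -0.074 to 0.73. Among partners, CORO2A ran from -0.64 to 0.42, TBL1X from -0.42 to 0.41 and MEF2A from -0.14 to 0.025 with trametinib, HMG20B from -0.12 to 0.063 in the combination, and HMG20B from -0.077 to 0.064 and MEF2A from -0.26 to 0.0076 with panobinostat, all against vehicle. TBL1X with trametinib was -0.0050 by limma, 0.062 by edgeR and 0.056 by DESeq2. TMM scaling moved the median of all genes by under 0.1 log2 in every comparison. HDAC7 and HDAC8 had the fewest reads in a single library, at 123 and 186. The widest standard error against vehicle was that of HDAC10 (0.26 log2), beside 0.21 for HDAC8 and 0.19 for HDAC7. The part of depth in the results was not tested.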

Other observations

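HDAC11, the only class IV enzyme and not a member of either class described above, had normalised values of 84.3 and 74.5 in the combination, 51.0 and 40.3 with panobinostat, 105 and 76.4 with trametinib, and 40.3 and 38.0 with vehicle. It rose with trametinib (log2 change 1.18 ± 0.36, limma adjusted p = 0.0219) and in the combination (1.00 ± 0.36, adjusted p = 0.0430). The trametinib call ended without vehicle replicate 1 (1.22) or vehicle replicate 2 (1.13), and the combination call ended without any single vehicle, panobinostat or combination library (0.91 to 1.09).

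Over the 8 libraries, the genes whose log2 values were most alike those of HDAC9 among 12342 compared were COL12A1, which encodes a chain of type XII collagen (Pearson r = 0.997), LPHN1, an adhesion receptor (0.993), and PGAP1, an enzyme of GPI anchor processing (0.992). COL12A1 had 327 and 265 in the combination, 358 and 367 with panobinostat, 9.03 and 21.1 with trametinib and 19.9 and 19.8 with vehicle. For HDAC8 they were LOC100379224 (0.983), NDUFB4, a subunit of respiratory complex I (0.969), and SAMD9L, an antiviral factor (0.968). These are descriptions over 4 groups of 2 libraries.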
